A study of Mus musculus with 14 samples.

Results

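Lipid droplet and cholesterol efflux genes were followed in the ischemic mouse brain through 9 members, Plin2, Soat1, Abca1, Abcg1, Nr1h3, Ch25h, Npc2, Fabp5 and Olr1, taken by symbol from a table of 46904 genes. All 9 were listed, and all 9 entered the tests. RNA came from whole brain hemispheres of male mice, 12 weeks old, on a C57BL/6J background. The middle cerebral artery had been blocked for 20 min by a filament passed through the left common carotid artery (MCAO), and tissue was taken 48 h later. Wild-type mice (Cort+/+) were compared with mice lacking Cort (Cort-/-), the gene of the neuropeptide cortistatin, and both genotypes underwent the occlusion. The ischemic hemisphere (MCAO) was compared with the contralateral hemisphere (CL) of operated animals, so every CL library comes from a brain with a lesion on the other side, and no sham-operated group is among the libraries analysed here. Cort+/+ mice gave 3 CL and 3 MCAO libraries (MCAO replicates 2, 3 and 4), and Cort-/- mice gave 3 CL and 5 MCAO libraries, 14 in all. The paper describes 5 MCAO replicates, and no other Cort+/+ MCAO libraries were analysed here. Its methods say that where replicates separated widely, a comparison kept only those that grouped consistently, at least 3. Whether the Cort+/+ MCAO libraries analysed here were chosen in that way is not stated. The libraries are labelled as separate biological replicates, but the labels do not say which CL and MCAO libraries share an animal.

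Cells that take up lipid debris, such as phagocytes clearing myelin, free cholesterol in the lysosome, esterify it for storage in lipid droplets or export it to apolipoprotein particles. Oxysterols made from cholesterol activate the liver X receptors (LXR), nuclear receptors that switch on the genes of the export pumps. In the injured brain these steps are best known in microglia, infiltrating macrophages and astrocytes. A whole hemisphere mixes all of these cells, so a higher share of cells of a type and more RNA per cell cannot be told apart.

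Expression was measured in RPKM, a read count divided by gene length and by library size, and depth was between 26005560 and 43059327 reads on genes. Cort, the deleted gene, held 0 to 4 reads in the libraries of Cort-/- mice and 64 to 139 reads in those of Cort+/+ mice. Among the MCAO libraries, Cort+/+ replicate 4 and Cort-/- replicate 3 lay nearest to the CL libraries over the genes that rose with ischemia outside the 9 members (mean log2 level of 1.38 and 1.56, against up to 2.19). Among the CL libraries, Cort-/- replicate 2 and Cort+/+ replicate 1 lay nearest to MCAO (1.07 and 1.06, against 0.867 to 0.908).

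Averaged over the 14 libraries on the RPKM scale, which accounts for gene length, Fabp5 was the most abundant member at 63.0 RPKM, followed by Npc2 at 18.2, Abcg1 at 12.5, Abca1 at 6.44, Plin2 at 6.40 and Soat1 at 4.76 RPKM. Ch25h (1.79 RPKM) and Nr1h3 (1.31 RPKM) were low, and Olr1 was close to the limit of detection at 0.0239 RPKM, with 0 to 11 reads per library. All 9 are protein-coding genes of GRCm39. The plot of the 9 genes in each library shows which of them separated the hemispheres.

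**Figure D1:**
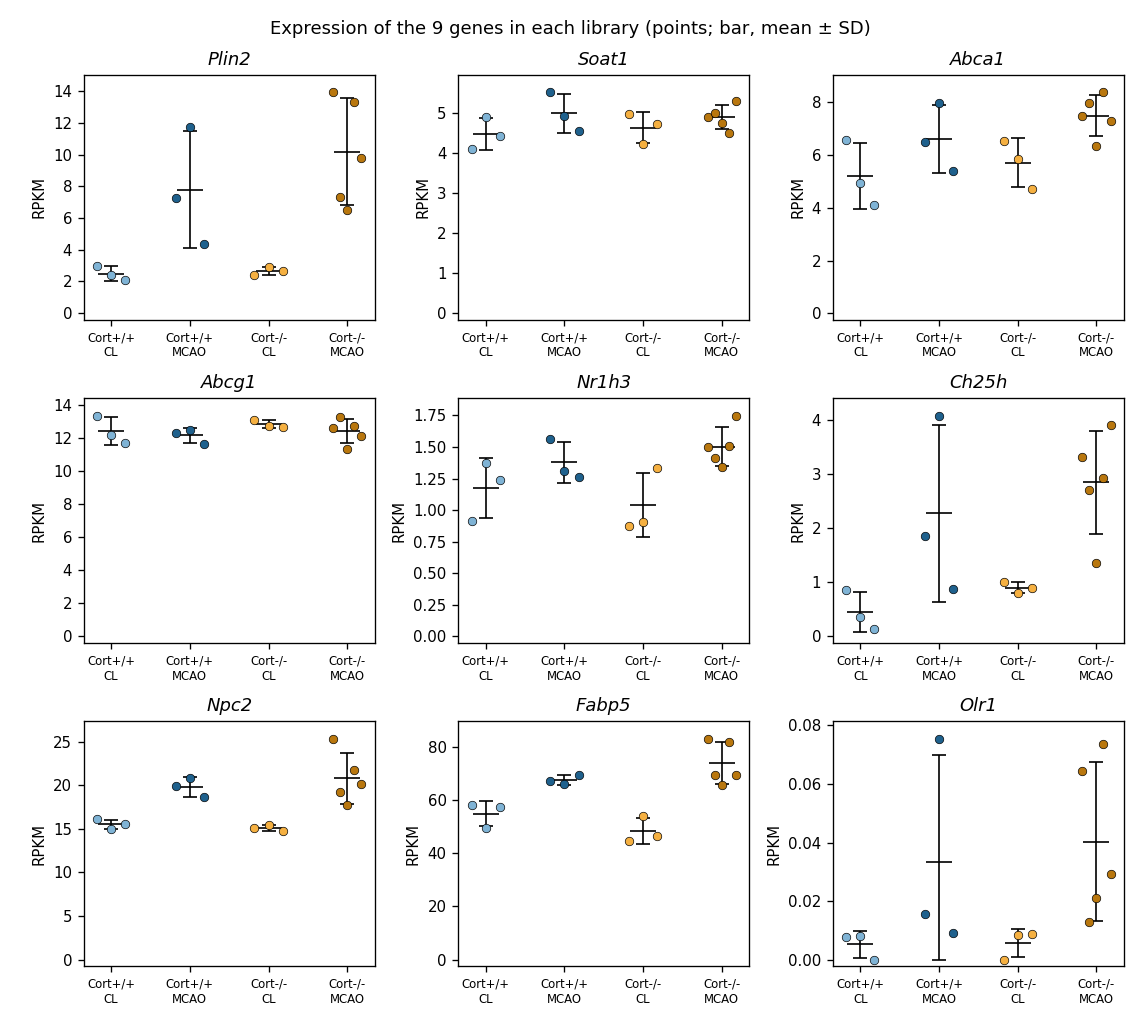
Expression of the 9 genes in RPKM (vertical axes, linear, each with its own scale) in the 4 groups of genotype and hemisphere; points are libraries and bars the mean ± SD, cut off at 0 for Olr1. Plin2, Ch25h, Npc2, Fabp5 and Olr1 lay higher in every MCAO library than in every CL library of the same genotype (Olr1 in Cort+/+ mice by library size alone, at 1 read in both hemispheres), whereas Abcg1 and Soat1 overlapped.

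Plin2 (ENSMUSG00000028494, chromosome 4, 86565912 to 86588459, minus strand) encodes perilipin 2, the protein that coats lipid droplets in most cells outside fat tissue. In Cort+/+ mice it stood at 2.99, 2.39 and 2.10 RPKM in the CL libraries and at 7.29, 11.7 and 4.38 RPKM in the MCAO libraries. The Cort-/- CL libraries held 2.38, 2.93 and 2.67 RPKM and the MCAO libraries 13.9, 7.33, 6.51, 13.3 and 9.75 RPKM. The hemispheres did not overlap in either genotype, and the MCAO libraries spread widely while the CL libraries stayed close together. The group means were 2.49 ± 0.455 (SD, n = 3) and 7.79 ± 3.69 RPKM (SD, n = 3) in Cort+/+ mice, and 2.66 ± 0.275 (SD, n = 3) and 10.2 ± 3.37 RPKM (SD, n = 5) in Cort-/- mice.

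Fold changes are on the scale of log2(RPKM + 0.1), which understates those of low genes, and were tested with limma in a single model of the 4 groups, with Benjamini-Hochberg adjustment over 46102 genes. In Cort-/- mice Plin2 rose 3.57-fold with ischemia (95% interval 2.29 to 5.56, log2 fold change 1.83, standard error 0.30, limma adjusted p = 0.0130). That call was lost without CL replicate 1 (limma adjusted p = 0.0673) or without CL replicate 3 (limma adjusted p = 0.0587) of Cort-/- mice. In Cort+/+ mice the log2 fold change was 1.51 (standard error 0.33, 95% interval 0.79 to 2.23), which missed the threshold (limma adjusted p = 0.195) but passed it without MCAO replicate 4 (1.86, limma adjusted p = 0.0285). Taken as the mean of both genotypes, Plin2 rose by a log2 fold change of 1.67 (standard error 0.22, limma adjusted p = 0.00199, higher in 8 of 8 MCAO libraries than in every CL library), and this call held without any 1 of the 14 libraries.

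The other perilipins put the level of Plin2 in context. Plin2 made up 14.8% to 27.6% of the summed RPKM of Plin1 to Plin5 in the Cort+/+ CL libraries and 37.9% to 50.7% in the MCAO libraries. Its share was 19.7% to 24.0% in CL and 45.8% to 62.8% in MCAO libraries of Cort-/- mice, so that neither genotype showed overlap. Plin3, a perilipin found on many droplets and in the cytosol, stayed within 4.28 to 5.79 RPKM in all libraries. Plin4, known from fat and muscle, varied widely between libraries of the same group, from 1.45 to 12.3 RPKM in Cort+/+ CL and from 1.11 to 10.1 RPKM in Cort-/- MCAO. Its log2 fold change with ischemia was −0.30 as the mean of both genotypes (standard error 0.57, limma adjusted p = 0.895).

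**Figure D2:**
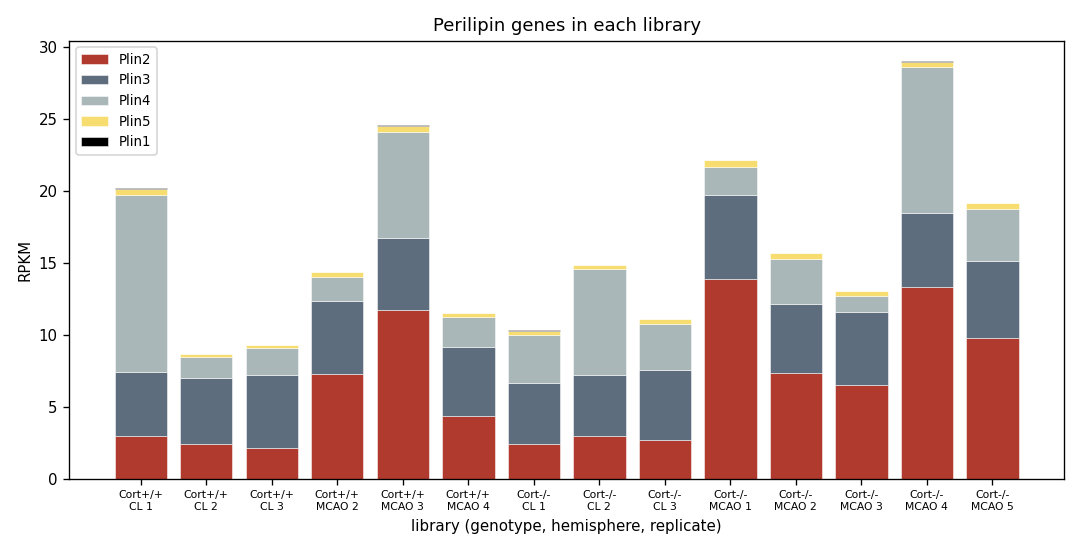
Stacked RPKM of the 5 perilipin genes in each of the 14 libraries, one bar per library, starting at 0. Plin2 takes at most 27.6% of the bar in the CL libraries and at least 37.9% in the MCAO libraries, while the Plin4 segment varies from library to library within the groups.

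Soat1 (ENSMUSG00000026600, chromosome 1, 156252095 to 156303864, minus strand) encodes the enzyme that esterifies cholesterol for storage. It measured 4.10, 4.89 and 4.42 RPKM in Cort+/+ CL, and 5.50, 4.90 and 4.53 RPKM in Cort+/+ MCAO libraries. The Cort-/- values were 4.95, 4.21 and 4.71 RPKM in CL, and 4.90, 4.98, 4.74, 4.49 and 5.30 RPKM in MCAO libraries. The hemispheres overlapped in both genotypes, and no library stood far from the others. The mean log2 fold change of 0.11 had a 95% interval of −0.02 to 0.25 (limma adjusted p = 0.433). Soat1 supplied 95.1% to 99.4% of the summed RPKM of Soat1 and Soat2, its paralog of liver and intestine.

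Abca1 (ENSMUSG00000015243, chromosome 4, 53030787 to 53159900, minus strand) encodes the transporter that loads cholesterol and phospholipid onto lipid-poor apolipoproteins. Cort+/+ mice had 6.57, 4.94 and 4.10 RPKM in CL and 6.52, 7.97 and 5.39 RPKM in MCAO libraries. Cort-/- mice had 6.55, 5.85 and 4.71 RPKM in CL and 7.50, 7.98, 6.36, 8.38 and 7.30 RPKM in MCAO libraries. The groups overlapped in both genotypes, through CL replicate 1 of each, which was the highest CL library. The mean log2 fold change was 0.37 (95% interval 0.12 to 0.63, limma adjusted p = 0.126). It passed the threshold without Cort+/+ CL replicate 1 (0.46, limma adjusted p = 0.0415) and with limma voom on the recovered reads (0.45, limma adjusted p = 0.0216).

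Abcg1 (ENSMUSG00000024030, chromosome 17, 31276649 to 31336969, plus strand), the transporter that passes cholesterol on to lipidated particles, was the member with the smallest change. It measured 13.4, 12.2 and 11.7 RPKM in Cort+/+ CL and 12.3, 12.5 and 11.7 RPKM in Cort+/+ MCAO libraries. The Cort-/- values were 13.1, 12.7 and 12.7 RPKM in CL and 12.6, 13.3, 11.3, 12.8 and 12.1 RPKM in MCAO libraries. The hemispheres overlapped in both genotypes, and the genotypes overlapped in each hemisphere. The mean log2 fold change of −0.04 had a 95% interval of −0.13 to 0.05 (limma adjusted p = 0.749), so a change of the size seen in Abca1 lies outside the interval. Abcg1 made up 37.4% to 44.3% of the summed RPKM of Abcg1 and its close paralog Abcg4 in all libraries.

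Nr1h3 (ENSMUSG00000002108, chromosome 2, 91014394 to 91033417, minus strand) encodes LXR alpha, a receptor that drives both transporter genes. It measured 0.911, 1.37 and 1.23 RPKM in Cort+/+ CL, and 1.57, 1.31 and 1.26 RPKM in Cort+/+ MCAO libraries. Its Cort-/- values were 0.877, 0.909 and 1.34 RPKM in CL, and 1.50, 1.41, 1.34, 1.50 and 1.75 RPKM in MCAO libraries, from 65 to 144 reads per library over all groups. The groups overlapped in Cort+/+ mice. The lowest Cort-/- MCAO library lay just above Cort-/- CL replicate 3, the highest CL library of that genotype. The mean log2 fold change was 0.37 (95% interval 0.12 to 0.62, limma adjusted p = 0.124), and it passed the threshold without Cort-/- CL replicate 3 (limma adjusted p = 0.0489). Nr1h3 made up only 3.68% to 7.03% of the summed RPKM of both LXR genes, the rest being Nr1h2, which encodes LXR beta and held group means of 21.8 to 23.0 RPKM.

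Ch25h (ENSMUSG00000050370, chromosome 19, 34451178 to 34452564, minus strand) encodes cholesterol 25-hydroxylase, which makes an oxysterol that activates LXR and guides immune cells after further conversion. In Cort+/+ mice it measured 0.854, 0.354 and 0.135 RPKM in CL and 1.86, 4.08 and 0.885 RPKM in MCAO libraries. Its Cort-/- values were 1.00, 0.802 and 0.891 RPKM in CL and 3.31, 2.70, 1.36, 2.94 and 3.91 RPKM in MCAO libraries. MCAO lay above CL without overlap in each genotype, by a narrow margin in Cort+/+ mice between CL replicate 1 (43 reads) and MCAO replicate 4 (38 reads at a smaller library size). Across genotypes the hemispheres touched, since Cort+/+ MCAO replicate 4 fell below 2 of the Cort-/- CL libraries.

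As the mean of both genotypes, Ch25h rose 3.47-fold (95% interval 2.02 to 5.97, log2 fold change 1.80, standard error 0.36, limma adjusted p = 0.0156), a call that held without any 1 library. With a pseudocount of 1 the log2 fold change was 1.03 (limma adjusted p = 0.0252). Within the genotypes the estimates were 2.10 in Cort+/+ (95% interval 0.94 to 3.27, limma adjusted p = 0.263) and 1.49 in Cort-/- mice (95% interval 0.45 to 2.53, limma adjusted p = 0.166). The Cort-/- value passed when only the CL and MCAO libraries of Cort-/- mice were fitted (limma adjusted p = 0.0469). The paper, with edgeR on read counts, lists Ch25h among the genes higher with ischemia in both genotypes.

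Npc2 (ENSMUSG00000021242, chromosome 12, 84801334 to 84820617, minus strand) encodes the soluble lysosomal protein that hands cholesterol to NPC1 for release. In Cort+/+ mice it measured 16.1, 15.0 and 15.5 RPKM in CL and 20.0, 20.8 and 18.6 RPKM in MCAO libraries. For Cort-/- mice the values were 15.1, 15.5 and 14.7 RPKM in CL and 25.3, 19.2, 17.7, 21.7 and 20.1 RPKM in MCAO libraries. Every MCAO library lay above every CL library of either genotype, and the CL libraries fell in a narrow band. Npc2 rose 1.32-fold as the mean of both genotypes (95% interval 1.19 to 1.46, log2 fold change 0.40, standard error 0.07, limma adjusted p = 0.0065), a call that held without any 1 library. It rose 1.37-fold in Cort-/- mice (limma adjusted p = 0.0271), but that call was lost without CL replicate 1, 2 or 3 or MCAO replicate 4 or 5 (limma adjusted p = 0.0522 to 0.112) and when only the Cort-/- libraries were fitted (0.0783). In Cort+/+ mice the log2 fold change was 0.35 (95% interval 0.13 to 0.56, limma adjusted p = 0.319).

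Fabp5 (ENSMUSG00000027533, chromosome 3, 10077602 to 10081674, plus strand) encodes a fatty acid binding protein of the cytosol. In Cort+/+ mice it measured 58.0, 49.5 and 57.3 RPKM in CL and 67.3, 65.9 and 69.5 RPKM in MCAO libraries. For Cort-/- mice the values were 44.8, 54.0 and 46.3 RPKM in CL and 83.1, 69.4, 65.7, 82.0 and 69.6 RPKM in MCAO libraries. Every MCAO library lay above every CL library, and MCAO replicates 1 and 4 of Cort-/- mice, which were also the highest in Plin2, stood above the rest. In Cort-/- mice Fabp5 rose 1.53-fold (95% interval 1.34 to 1.74, log2 fold change 0.61, standard error 0.09, limma adjusted p = 0.00904), and as the mean of both genotypes 1.37-fold (log2 fold change 0.46, standard error 0.07, limma adjusted p = 0.00339). Both calls held without any 1 library. In Cort+/+ mice the log2 fold change was 0.30 (95% interval 0.09 to 0.51, limma adjusted p = 0.388). Fabp5 made up 44.2% to 56.2% of the summed RPKM of Fabp3, Fabp4, Fabp5 and Fabp7 in all libraries, and reads of its processed pseudogenes could in part be counted as Fabp5.

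Olr1 (ENSMUSG00000030162, chromosome 6, 129462207 to 129484128, minus strand) encodes LOX-1, a scavenger receptor for oxidized low-density lipoprotein. It held 1, 1 and 0 reads in the Cort+/+ CL libraries and 2, 11 and 1 reads in the Cort+/+ MCAO libraries. The Cort-/- CL libraries held 0, 1 and 1 reads and the MCAO libraries 10, 2, 2, 11 and 4 reads. No CL library exceeded 1 read, and Cort+/+ MCAO replicate 4 held 1 read as did 2 Cort+/+ CL libraries, so that its RPKM value (0.00904 against 0.00772 and 0.00810) was higher by library size alone. Most MCAO reads came from Cort+/+ replicate 3 and Cort-/- replicates 1 and 4. Over both genotypes 43 reads in 8 MCAO libraries stood against 4 reads in 6 CL libraries, a ratio of 7.43 after library size with an exact conditional interval of 2.70 to 28.5 that covers counting error only. The limma test gave no call (mean log2 fold change 0.35, limma adjusted p = 0.199). Its size depends on the pseudocount (0.04 with 1 and 1.40 with 0.01), and limma voom on the reads gave 2.02 (limma adjusted p = 0.0419).

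Counted over the members, 4 of 9 passed the test as the mean of both genotypes, all higher in MCAO (Plin2, Ch25h, Npc2 and Fabp5), where 3.43% of all genes passed and 2.52% passed as higher. The 9 were chosen with earlier results of these data known, so shares of all genes are given for scale and do not test the set. Among the 17476 genes with a mean of 0.5 RPKM or more, which hold 8 of the 9 members, 12.5% passed as the mean of both genotypes and 7.38% in Cort-/- mice. Within Cort-/- mice 3 of 9 passed (Plin2, Npc2 and Fabp5), where 1.72% of all genes passed and 1.34% passed as higher. In Cort+/+ mice 0 of 9 passed by limma, where 0.0108% of all genes did, and 4 of 9 had an unadjusted p under 0.05, where 7.87% of all genes did. The paper, which tested read counts with edgeR, called more genes in each genotype than limma did here. Cort+/+ mice had 3 MCAO libraries against 5 of Cort-/- mice, so the counts of members do not compare the strength of the response. Without Cort+/+ CL replicate 1 and Cort-/- CL replicate 2, the CL libraries nearest to MCAO, the counts were 4 of 9 as the mean of both, 2 of 9 in Cort-/- mice (Npc2 was lost) and 0 of 9 in Cort+/+ mice. The Cort-/- count was 1 of 9 (Fabp5) without CL replicate 1 or 3 of that genotype. By position alone, 5 of 9 lay higher in MCAO without overlap in both genotypes (Plin2, Ch25h, Npc2, Fabp5 and, by library size alone in Cort+/+ mice, Olr1), where 2.13% of all genes did. Taken separately, 5 of 9 lay higher without overlap in Cort+/+ mice (background 5.73%), 6 of 9 with Nr1h3 in Cort-/- mice (background 4.85%), and 4 of 9 when the libraries of both genotypes were pooled (background 1.72%), Ch25h being lost. The median log2 fold change of the 9 was 0.31 in Cort+/+ mice, 0.45 in Cort-/- mice and 0.37 as the mean of both, beside a median of 0 over all genes tested to 2 decimals in each comparison. The members that passed were 1 droplet coat, 1 oxysterol enzyme, 1 lysosomal and 1 fatty acid carrier gene. The transporters, LXR alpha, the esterifying enzyme and the scavenger receptor Olr1 did not pass. The split is one of threshold, with mean log2 fold changes of 0.37 for Abca1 and for Nr1h3 beside 0.40 for Npc2.

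**Figure D3:**
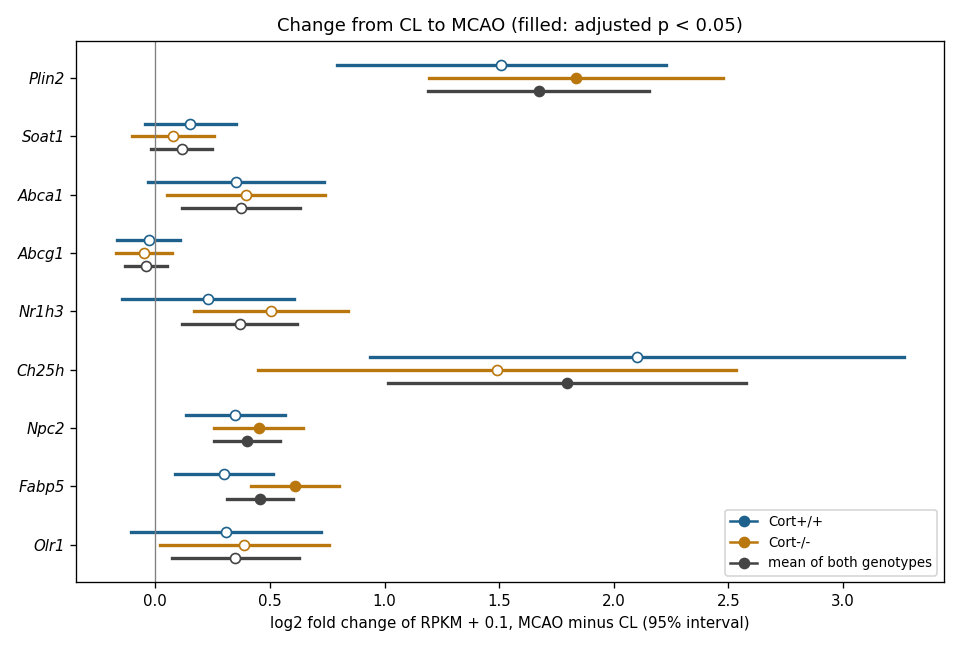
Log2 fold change of RPKM + 0.1 from CL to MCAO (horizontal axis) for the 9 genes, in Cort+/+ mice, in Cort-/- mice and as the mean of both, with 95% intervals; filled points have a limma adjusted p under 0.05. Plin2 and Ch25h lie between 1.49 and 2.10, and Abcg1 lies at −0.05 to −0.03.

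Markers of the phagocytes that handle these lipids moved with the same hemispheres. The summed level of 6 pan-myeloid markers (Aif1, Itgam, Csf1r, Ptprc, Cd68 and Tyrobp) was 48.0 to 63.6 RPKM in Cort+/+ CL and 81.7 to 143 RPKM in Cort+/+ MCAO libraries, and 51.9 to 62.4 and 91.0 to 169 RPKM in Cort-/- mice. All 6 of 6 passed as higher as the mean of both genotypes, where 2.52% of all genes did. The 8 microglia markers in the table summed to 86.1 to 89.1 and 112 to 176 RPKM in Cort+/+ mice, and to 81.2 to 97.1 and 128 to 191 RPKM in Cort-/- mice. As the mean of both genotypes 8 of 8 had positive changes (median log2 fold change 0.67), and 6 of 8 passed as higher. The 8 infiltrating macrophage markers summed to 4.64 to 15.4 and 11.2 to 30.1 RPKM in Cort+/+ mice, and to 6.51 to 12.7 and 17.5 to 58.4 RPKM in Cort-/- mice. Of these, 8 of 8 also had positive mean changes (median log2 fold change 0.83), but only 2 of 8 passed as higher.

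Markers of the other cell types were read in the same way. Neutrophil markers (0 of 7 called) summed to 2.33 to 4.82 RPKM in Cort+/+ and 3.53 to 15.5 RPKM in Cort-/- mice over both hemispheres, and border macrophage markers (0 of 7) to 1.83 to 3.91 and 2.43 to 8.55 RPKM. As the mean of both genotypes 7 of 7 border macrophage markers had positive changes (median log2 fold change 0.28), against 2 of 7 neutrophil markers (−0.02). Astrocyte markers reached 499 to 636 RPKM in Cort+/+ CL and 582 to 765 RPKM in Cort+/+ MCAO, and 534 to 600 and 606 to 790 RPKM in Cort-/- mice. Gfap alone went from group means of 70.8 to 210 RPKM in Cort+/+ and of 72.8 to 280 RPKM in Cort-/- mice. The median log2 fold change of the list was only 0.02 as the mean of both genotypes, with 3 of 7 passing as higher and 2 of 7 negative. In Cort-/- mice 4 of 7 were negative and 3 of 7 positive. Endothelial markers summed to 62.3 to 72.5 and 66.9 to 76.3 RPKM in Cort+/+ mice, and to 51.6 to 61.0 and 67.0 to 84.3 RPKM in Cort-/- mice. Their mean changes were positive for 8 of 8 (median log2 fold change 0.17), and 2 of 8 passed as higher. For oligodendrocytes, neurons and choroid plexus 0 of 6, 0 of 6 and 0 of 5 markers were called, with median log2 fold changes of −0.02, −0.11 and 0.10 as the mean of both genotypes. No marker of any of these 10 lists was at 0 in every library of a group.

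Set against the summed pan-myeloid markers of the same library, Plin2 measured 4.38% to 4.93% of that sum in Cort+/+ CL and 5.36% to 8.18% in Cort+/+ MCAO libraries. The Cort-/- libraries gave 4.59% to 4.98% in CL and 6.32% to 8.47% in MCAO libraries, so Plin2 stayed higher in MCAO without overlap. Against the infiltrating macrophage markers the hemispheres overlapped (19.5% to 45.2% in CL and 23.8% to 43.7% in MCAO libraries over both genotypes). Npc2 went the other way, from 24.8% to 32.3% of the pan-myeloid sum in CL to 13.8% to 22.8% in MCAO libraries, as did Fabp5, from 86.3% to 119% in CL to 46.1% to 85.1% in MCAO libraries. The Ch25h shares of the pan-myeloid sum overlapped between hemispheres. The part of cell numbers in these changes was not tested.

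Promoter sequence was read for the members that rose, to show what lies upstream of genes that moved together. RefSeq windows of GRCm38.p6 were held for 7 of the 9 members (not for Abcg1 and Fabp5), and both strands were searched for 2 copies of AGGTCA in the same direction with 4 free bases between them (DR4, the repeat bound by LXR with its partner RXR) or with 1 (DR1, the repeat bound by PPAR receptors with RXR), allowing 2 mismatches among the fixed letters; a window could hold both. No member window held a DR4 match, against 3.02% of 32851 windows, and Plin2 was the only member with a DR1 match, against 3.86% of windows. It lies on the strand opposite to the gene, 225 bases before the annotated start, with 2 mismatches, and is given in capitals. The 250 bases before the start of Plin2 (chr4:86670060-86670309), Npc2 (chr12:84773113-84773362) and Ch25h (chr19:34475149-34475398), all on the minus strand of GRCm38.p6, read 5′ to 3′ along the gene:
Plin2: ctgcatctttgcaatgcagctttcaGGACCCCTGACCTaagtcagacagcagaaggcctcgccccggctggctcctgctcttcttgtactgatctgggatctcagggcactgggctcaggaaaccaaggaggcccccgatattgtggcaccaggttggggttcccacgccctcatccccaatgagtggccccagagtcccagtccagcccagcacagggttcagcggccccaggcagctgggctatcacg
Npc2: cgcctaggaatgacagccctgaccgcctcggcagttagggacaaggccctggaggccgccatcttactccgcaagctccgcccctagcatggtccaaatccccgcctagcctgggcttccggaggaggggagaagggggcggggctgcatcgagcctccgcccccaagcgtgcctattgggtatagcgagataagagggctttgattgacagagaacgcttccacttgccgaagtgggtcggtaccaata
Ch25h: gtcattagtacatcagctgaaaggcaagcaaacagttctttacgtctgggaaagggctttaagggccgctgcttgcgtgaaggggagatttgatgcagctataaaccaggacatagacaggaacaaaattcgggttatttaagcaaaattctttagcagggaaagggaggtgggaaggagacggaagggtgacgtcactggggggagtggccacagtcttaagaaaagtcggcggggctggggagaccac
The windows of Plin2 and Npc2 were GC-rich (60.7% and 62.7%) and that of Ch25h was not (51.0%), beside a median of 52.7% over all windows. A match is a description of letters, not a bound site, and binding was not measured.

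Whether the lack of cortistatin shifted these genes was asked in each hemisphere. In CL hemispheres 0 of 9 members differed between Cort-/- and Cort+/+ mice by limma, where 0.0152% of all genes did, and 0 of 9 had an unadjusted p under 0.05 (3.91% of all genes). In MCAO hemispheres 0 of 9 differed, where 0.0174% of all genes did, and again 0 of 9 had an unadjusted p under 0.05 (3.82% of all genes). All 9 members overlapped between genotypes in both hemispheres, where Cort-/- lay above Cort+/+ without overlap for 3.9% and below for 2.35% of all genes in CL, and for 0.861% and 1.56% in MCAO hemispheres.

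The intervals show how large a difference could have gone unseen. For Plin2 the log2 difference, Cort-/- minus Cort+/+, was 0.10 in CL (95% interval −0.62 to 0.82) and 0.42 in MCAO hemispheres (95% interval −0.22 to 1.07). For Ch25h it was 1.09 in CL (95% interval −0.07 to 2.26, limma unadjusted p = 0.0640, adjusted p = 1), where 2 of 3 Cort-/- libraries lay above every Cort+/+ library, and 0.48 in MCAO hemispheres (95% interval −0.56 to 1.52). For Abcg1, Soat1 and Npc2 every interval lay within −0.26 to 0.26 in both hemispheres. For Abca1 it reached from −0.24 to 0.53, and for Nr1h3 from −0.54 to 0.45, over both hemispheres.

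**Figure D4:**
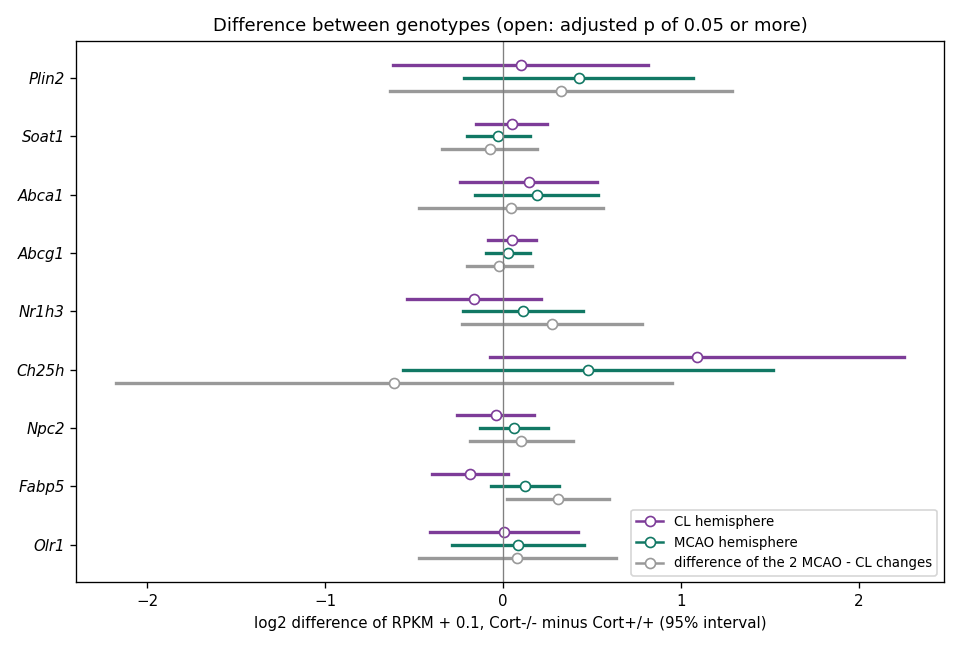
Log2 difference of RPKM + 0.1 between Cort-/- and Cort+/+ mice (horizontal axis) for the 9 genes in CL hemispheres, in MCAO hemispheres and for the difference between their MCAO changes, with 95% intervals; open points have a limma adjusted p of at least 0.05. No point is filled, and the widest intervals belong to Ch25h and Plin2.

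The ischemic response itself was compared between genotypes as the interaction of the model. In it 0 of 9 members were called by limma, where 0.00217% of all genes were, and 1 of 9 had an unadjusted p under 0.05, where 3.31% of all genes did. That member was Fabp5, whose change was larger in Cort-/- mice by 0.31 on the log2 scale (95% interval 0.02 to 0.60, limma unadjusted p = 0.0369, adjusted p = 1). Its mean was lower in Cort-/- CL (48.4 ± 4.95 RPKM, SD, n = 3, against 55.0 ± 4.72 RPKM, SD, n = 3) and higher in Cort-/- MCAO hemispheres (74.0 ± 8.01 RPKM, SD, n = 5, against 67.6 ± 1.82 RPKM, SD, n = 3). Plin2 had an interaction of 0.33 (95% interval −0.64 to 1.29) and Ch25h of −0.61 (95% interval −2.18 to 0.95).

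Other genes of lipid handling were read from 5 lists holding 76 genes of the table, likewise chosen with earlier results of these data known. As the mean of both genotypes 14 of 76 passed as higher and 1 as lower, where 3.43% of all genes passed and 2.52% passed as higher. Called or not, 49 of the 76 had positive and 27 negative changes. In Cort-/- mice 6 passed as higher and 1 as lower, where 1.72% passed and 1.34% passed as higher. In Cort+/+ mice 0 were called (0.0108% of all genes), and 17 had an unadjusted p under 0.05 (7.87% of all genes). Among genes with a mean of 0.5 RPKM or more, 12.5% passed as the mean of both genotypes and 7.38% in Cort-/- mice. These shares are the background of each list below. Between genotypes 0 of 76 were called in CL, in MCAO hemispheres or in the interaction, where 0.0152%, 0.0174% and 0.00217% of all genes were. The median log2 fold change of the 76 was 0.07, beside 0.37 for the 9 members.

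Lipid uptake and binding held the largest changes, with 5 of 14 genes higher and a median of 0.25 as the mean of both genotypes. Msr1, a scavenger receptor of macrophages, rose from 0.141 ± 0.141 RPKM (SD, n = 3) to 1.48 ± 1.11 RPKM (SD, n = 3) in Cort+/+ and from 0.104 ± 0.0885 RPKM (SD, n = 3) to 2.14 ± 1.18 RPKM (SD, n = 5) in Cort-/- mice (mean log2 fold change 2.95, limma adjusted p = 0.00376). Cxcl16, whose membrane form binds oxidized lipoprotein, rose by 2.00 (limma adjusted p = 4.44e-04), the astrocyte and progenitor fatty acid carrier Fabp7 by 1.15 (0.00323), the scavenger receptor Stab1 by 1.14 (0.00949) and the fatty acid translocase Cd36 by 0.70 (0.0104). In Cort-/- mice Msr1 (3.38), Cxcl16 (2.07), Stab1 (1.23) and Fabp7 (1.13) passed. Fabp3, another carrier of the same family, had a mean log2 fold change of 0.01 (limma adjusted p = 0.959).

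In the sterol efflux and LXR pathway 11 of 18 genes had positive and 7 negative changes as the mean of both genotypes, the lowest at −0.49 without a call. The median was 0.09, and 4 of the 18 passed as higher and 0 as lower. They were Lcat, which esterifies cholesterol on lipoproteins (mean log2 fold change 0.47, limma adjusted p = 0.0308), Lpl, lipoprotein lipase (0.39, 0.0147), Lpcat3, a phospholipid-remodelling enzyme under LXR control (0.29, 0.0190) and Scarb1, a receptor for high-density lipoprotein (0.24, 0.0228). Lpl alone passed in Cort-/- mice (0.48, limma adjusted p = 0.0359). Apoe, the main lipid carrier of the brain and an LXR target, stood at group means of 583 and 569 RPKM in CL and MCAO of Cort+/+ mice and at 586 and 543 RPKM in Cort-/- mice (mean log2 fold change −0.07, 95% interval −0.20 to 0.07). The LXR beta gene Nr1h2 had a mean log2 fold change of 0.02 (limma adjusted p = 0.924).

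Lysosomal lipid handling had 2 of 12 genes passing as higher and 0 as lower, with a median of 0.07. Gpnmb, a glycoprotein of lipid-laden phagocytes, rose from 0.728 ± 0.175 RPKM (SD, n = 3) to 2.24 ± 1.27 RPKM (SD, n = 3) in Cort+/+ and from 0.881 ± 0.103 RPKM (SD, n = 3) to 3.52 ± 1.01 RPKM (SD, n = 5) in Cort-/- mice (mean log2 fold change 1.60, limma adjusted p = 0.00386), and it also passed in Cort-/- mice alone (1.85). Asah1, acid ceramidase, rose by 0.17 (limma adjusted p = 0.0287). Npc1, the membrane partner of Npc2, had a mean log2 fold change of 0.05 (95% interval −0.04 to 0.14, limma adjusted p = 0.678).

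Among the oxysterol genes 2 of 10 passed as higher and 1 as lower, with a median of 0.02. Gpr183, the receptor for the oxysterol that is made from the product of Ch25h, rose by 0.95 (limma adjusted p = 0.0169), and Hsd3b7, which inactivates that ligand, by 0.54 (limma adjusted p = 0.0234). Cyp46a1, the neuronal enzyme that turns cholesterol into 24-hydroxycholesterol, fell from 90.9 ± 5.60 RPKM (SD, n = 3) to 76.5 ± 5.15 RPKM (SD, n = 3) in Cort+/+ and from 90.1 ± 0.815 RPKM (SD, n = 3) to 74.0 ± 4.98 RPKM (SD, n = 5) in Cort-/- mice, without overlap over both genotypes (mean log2 fold change −0.27, limma adjusted p = 0.00712). The enzymes for 25-hydroxycholesterol and 24-hydroxycholesterol therefore moved in opposite directions, beside a sum of 6 neuron markers that was 1732 to 2124 RPKM in Cort+/+ CL and 1541 to 1797 RPKM in Cort+/+ MCAO libraries, which overlapped, and 1760 to 1880 RPKM in Cort-/- CL and 1559 to 1673 RPKM in Cort-/- MCAO libraries, which did not. The part of neuron number in the fall of Cyp46a1 was not tested.

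Droplet proteins and lipases, the list nearest to Plin2 in function, had 1 of 23 genes passing as higher and 0 as lower, with a median of −0.01. That gene was Acsl5, an acyl-CoA synthetase (mean log2 fold change 0.19, limma adjusted p = 0.0247). Hilpda, a lipase inhibitor induced by lipid load and low oxygen, had a mean log2 fold change of 0.07 (95% interval −0.09 to 0.24). None of the 23 passed by limma in Cort-/- mice, and 5 had an unadjusted p under 0.05, where 5862 of 46102 genes did. The largest changes among genes of at least 1 RPKM were −0.46 for Plin4 and 0.22 for G0s2.

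**Figure D5:**
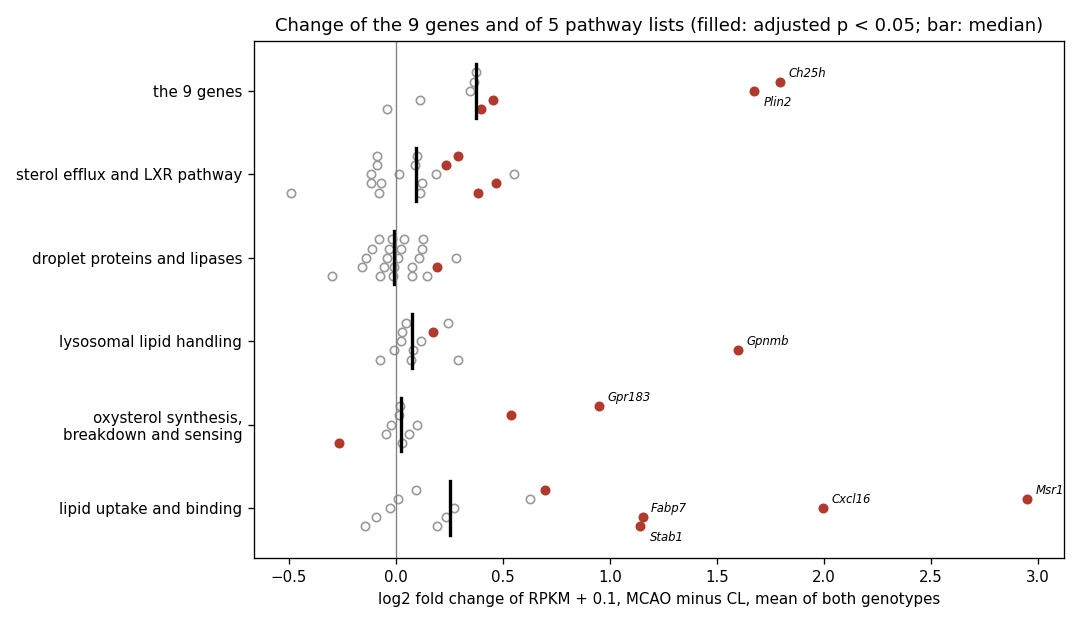
Log2 fold change of RPKM + 0.1 from CL to MCAO, as the mean of both genotypes (horizontal axis), for the 9 genes and for the genes of 5 lipid lists, one point per gene; filled points have a limma adjusted p under 0.05 and black bars are list medians. Msr1 (2.95), Cxcl16 (2.00) and Gpnmb (1.60) stand beside Plin2 and Ch25h, and the droplet list centres on −0.01.

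Among the called pathway genes, Msr1, Cxcl16, Gpnmb, Fabp7, Stab1, Cd36, Lpl and Cyp46a1 kept their call as the mean of both genotypes without any 1 library. Gpr183 lost it without Cort+/+ MCAO replicate 3 (limma adjusted p = 0.0547), Lpcat3 without that library or Cort-/- CL replicate 1 or 3, and Acsl5 without Cort-/- CL replicate 3, Cort+/+ CL replicate 2 or Cort+/+ MCAO replicate 2 or 3. Hsd3b7 and Scarb1 each lost it without any of 5 libraries, Asah1 of 7 and Lcat of 9, Cort+/+ MCAO replicate 3 being the library common to them all. In Cort-/- mice alone Cxcl16 kept its call without any 1 library, Msr1 and Gpnmb lost it without CL replicate 1 or 3, and Fabp7, Lpl, Cyp46a1 and Stab1 lost it without any of 5, 7, 8 and 9 libraries. Over the 14 fits that leave out 1 library, 8 to 17 of the 76 genes were called as the mean of both genotypes and 1 to 11 in Cort-/- mice. Over the other settings 4 to 21 and 0 to 15 were called, and with a pseudocount of 1 Msr1 (limma adjusted p = 0.0512) and Stab1 (0.0559) lost their call in Cort-/- mice.

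The genes whose log2 level followed each member most closely over the 14 libraries were sought among 15055 genes that averaged 1 RPKM or more. Points of the same hemisphere and the same library depth are shared by all of them, and the correlations are given as a description. For Plin2 they were Tmem106a, Cd63 and Hk3, with Pearson correlations of 0.995, 0.995 and 0.993, and of 0.978, 0.983 and 0.972 after each group was centred on its mean. For Ch25h they were Ptgs1, Kcnk6 and Rps29 (0.964, 0.963 and 0.959), for Npc2 Prdx1, Gm21970 and Rps27l (0.980, 0.978 and 0.973) and for Fabp5 S100a16, Anxa2 and Esd (0.949 to 0.966). For Abca1 they included Tmem43 and Lamb2 (0.936 and 0.934), for Abcg1 Cul4a, Usf1 and Dcaf10 (0.948, 0.884 and 0.882), and for Soat1 Yap1, Gm21992 and Pabpc4 (0.944, 0.940 and 0.940). For Nr1h3 they were Car8, Rexo2 and Magt1 (0.930, 0.894 and 0.894), and for Olr1, which rests on few reads, Plscr2, Itga7 and Mrpl17 (0.948, 0.932 and 0.931).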

How the data were processed

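Poly(A) RNA of 14 brain hemispheres was sequenced with stranded mRNA libraries. The authors aligned the reads to GRCm39 with the reanalyzerGSE pipeline, counted them on GENCODE genes and deposited RPKM values, without pooling replicates. Because the unit is RPKM and not counts, the test was limma on log2(RPKM + 0.1). Whole reads were recovered from the values (100% of 495656 values above 0 within 0.01 of a whole read). Recovery gave 26005560 to 43059327 reads per library, and all 19 same-group pairs of libraries differed beyond counting noise (chi-square divided by its degrees of freedom, 5.85 to 26.3).

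Genes detected in 2 or more libraries were kept (46102 of 46904) and fitted in one model of 4 groups with a variance trend. The 6 contrasts were MCAO against CL in each genotype and as their mean, Cort-/- against Cort+/+ in each hemisphere, and the interaction. Genes with a Benjamini-Hochberg adjusted p under 0.05 over all genes tested were called. The p-values measure the spread between these libraries. The 9 members, the 5 lipid lists and the 10 marker lists (microglia, pan-myeloid, infiltrating and border macrophage, neutrophil, endothelial, astrocyte, oligodendrocyte, neuron, choroid plexus) were chosen with earlier results of these data known. Named were all members, called genes of the lipid lists (at most 5 per list and contrast, or the 2 of largest change with at least 1 RPKM where none was called), paralogs, and the 3 genes most like each member. Partners of members or well-known LXR genes (Apoe, Npc1, Hilpda) were named after their values were seen. Fitm1 and Fcrls had no row under those symbols. Of the list of lysosomal lipid handling, 12 of 13 listed symbols had a row. Of the genes most like Abca1, 1 is not reported here. Positions come from GENCODE on GRCm39 and promoter windows from RefSeq on GRCm38.p6, and coordinates were not converted between builds. The script was tested on simulated data. Alternatives were 13 other settings, 1 of them (without Cort+/+ CL replicate 1 and Cort-/- CL replicate 2) chosen after seeing the data, and 14 fits that each left out 1 library. The software was limma 3.58.1 in R 4.3.3, then scripts in Python 3.11.15 using numpy 2.4.6, pandas 2.3.3, scipy 1.17.1 and matplotlib 3.10.9.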

Additional observations from a re-analysis of the deposited data

How the results depend on the processing

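Across 27 alternatives, the members tested in each kept the sign of their response to ischemia except Abcg1, whose log2 fold change in Cort+/+ mice turned to 0.000677 after rescaling to TPM, 0.0165 with limma voom and 0.0246 without Cort+/+ CL replicate 1 and Cort-/- CL replicate 2, and with voom to 0.0194 in Cort-/- mice and 0.0180 as the mean. Without 1 library it ranged from −0.0684 to 0.0246 in Cort+/+ mice. The number of members called without 1 library was 0 to 1 in Cort+/+ mice, 1 to 3 in Cort-/- mice and 4 to 5 as the mean of both.

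Whether the replicate numbers pair the hemispheres could not be decided. Deviations of same-numbered CL and MCAO libraries correlated at 0.32 and −0.14 in Cort+/+ mice and at −0.06, −0.24 and 0.03 in Cort-/- mice. Among the CL libraries, 1 of 5 correlated best with its own number. With so few libraries in each group, low correlations do not exclude that libraries of the same number share an animal. With the number as a replicate block in the model, 0 members were called in Cort-/- mice and 1 as the mean (Plin2, limma adjusted p = 0.0450), with limma adjusted p = 0.0545 for Npc2, 0.0572 for Fabp5 and 0.0714 for Ch25h. The block term was shared by Cort+/+ and Cort-/- libraries of the same number. It therefore joined different animals and is not a fit of paired hemispheres. Of the pathway genes, Msr1, Cxcl16, Gpnmb and Fabp7 kept the mean call with the block, while Cd36 (limma adjusted p = 0.0635), Stab1 (0.0676), Cyp46a1 (0.0709), Lpl (0.126) and the other 7 lost it, and 0 were called in Cort-/- mice (Cxcl16, 0.0964). This fit has fewer residual degrees of freedom. As a random block within each genotype, the number had a correlation of −0.0045.

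Differences between genotypes were called for 0 of the members tested in each alternative (Olr1 was not tested with the filter of a mean of 0.5 RPKM). Signs turned where values were near 0, but not only there. Without Cort+/+ MCAO replicate 4, Ch25h in MCAO hemispheres turned from 0.48 to −0.0357 and the interaction of Plin2 from 0.33 to −0.0276. Plin2 in MCAO hemispheres ranged from 0.0711 to 0.770 without 1 library. After rescaling to TPM, Npc2 in CL was 0.0191 and Soat1 in MCAO hemispheres 0.0304. The interaction of Abca1 was −0.0171 with the block, −0.0133 with library weights and −0.110 without both CL libraries named above, and that of Abcg1 was 0.0029 with voom. Without 1 library, CL differences ranged from −0.0106 to 0.323 for Abca1, −0.0127 to 0.233 for Plin2, −0.0115 to 0.114 for Soat1 and −0.0310 to 0.0449 for Olr1. MCAO differences ranged from −0.000631 to 0.0603 for Abcg1, −0.0898 to 0.0466 for Soat1, −0.0113 to 0.117 for Npc2, −0.0357 to 1.01 for Ch25h and −0.0428 to 0.300 for Olr1. Interactions ranged from −0.134 to 0.199 for Abca1, −0.0746 to 0.0184 for Abcg1, −0.0276 to 0.671 for Plin2 and −0.0483 to 0.295 for Olr1.

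Over all genes, the other settings called 1 to 54 in Cort+/+ mice, 0 to 1410 in Cort-/- mice, 238 to 2180 as the mean, 2 to 43 between genotypes in CL, 4 to 12 in MCAO and 0 to 18 in the interaction, and the fits without 1 library 3 to 160, 133 to 1191, 941 to 1913, 7 to 27, 7 to 40 and 1 to 16. The causes were not tested. Depth limits Olr1, and Ch25h below about 50 reads per library.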
